A study of Mus musculus with 8 samples.

Results

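The regions described here are the peaks of the chromatin remodeler Chd8 that lay at the end of 1 protein-coding gene and where no peak of its relative Chd7 was listed, in oligodendrocyte precursor cells of the early postnatal mouse brain. They were selected on measured values: a listed Chd8 peak was taken if it touched no peak of either mock library, touched no peak of either Chd7 library, and lay within 1 kb of a boundary of exactly 1 protein-coding gene. Of 18415 listed Chd8 peaks, 65 touched a mock peak, 18350 were left, and 11853 of these touched no Chd7 peak. Among the 11853, 6792 lay at no gene end, 725 at the ends of 2 genes and 21 at those of 3 or more. The remaining 4315, called Chd8-only single-end peaks below, made up 23.4% of the listed peaks, covered 1.88 Mb and lay at 3976 of 21887 protein-coding genes. Because absence from the Chd7 lists chose them, that absence is not a result, and a peak under the threshold of a Chd7 list counts as absent.

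Chromatin immunoprecipitation and sequencing (ChIP-seq) was done on cells that carry O4, a surface antigen of the oligodendrocyte lineage, sorted with magnetic beads from cortex and corpus callosum of wild-type mice at postnatal day 7, with no treatment. The 8 libraries were 1 Chd8 ChIP with an anti-Chd8 antibody, 2 Chd7 ChIPs with an anti-Chd7 antibody, 2 mock ChIPs with rabbit IgG and 3 inputs without antibody. The mocks and inputs served as controls, with 1 mock shared by the Chd8 library and Chd7 replicate 2, and input 3 assigned to the Chd8 library. Since Chd8 has 1 library, no Chd8 value has a replicate error, and no test between conditions was made. O4 marks precursors and later immature oligodendrocytes alike, and the lists hold no expression values with which the sorted cells could be checked. The values are the authors' peaks, each with a fold of signal over the caller's local background. Read depth is unknown, fold was not compared between libraries, and parentheses hold exact binomial 95% limits (Clopper-Pearson), which take in counting error alone, with peaks or genes as the units. Peak coordinates are on mm10.

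Chd8 and Chd7 belong to the chromodomain helicase DNA-binding family, enzymes that use ATP to move or open nucleosomes. Chd8 is known for its place at active promoters and for its role as an autism risk gene, and mutation of human CHD7 causes CHARGE syndrome. Both are known to be needed for oligodendrocytes to mature and myelinate.

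The promoters of 8 genes are printed here, those of highest fold whose peak covers a whole promoter window, because they show the DNA under the strongest of these peaks. Each is 250 bases before to 50 bases after a gene start, in the direction of the gene, from RefSeq (GRCm38.p6). Capitals mark matches on either strand to the motifs searched, which are named with the results on promoter letters. The highest fold, 23.6, was at Kmt5b (chr19:3767639-3767938, plus strand), an enzyme that methylates lysine of histone H4, with matches to GGGCGG at window positions 118 and 219. Ccdc124 (chr8:70873441-70873740, minus strand), a coiled-coil protein that binds ribosomes, had a fold of 20.1 and matches to CCAAT at 57 and AAGATGGCG at 177. Sfswap (chr5:129500981-129501280, plus strand), a splicing regulator, had 13.1 and matches to GGGCGG on the opposite strand at 7 and CCGGAAG at 240. Ndufs7 (chr10:80249199-80249498, plus strand), a subunit of respiratory complex I, had 10.7 and matches to TATAAA at 152 and AAGATGGCG at 275. Ptbp1 (chr10:79854182-79854481, plus strand), a repressor of splicing, had 10.6 and 6 matches, among them AAGATGGCG at 26 and 153. Fam98b (chr2:117249489-117249788, plus strand), a member of the tRNA ligase complex, had 10.4 and a match to ACAAAG at 108. Tbc1d7 (chr13:43171452-43171751, minus strand), a subunit of the TSC complex, had 10.3 and a match to CACGTG at 198. Chtop (chr3:90509449-90509748, minus strand), an mRNA export factor, had 10.3 and no match to any of the motifs.
Kmt5b: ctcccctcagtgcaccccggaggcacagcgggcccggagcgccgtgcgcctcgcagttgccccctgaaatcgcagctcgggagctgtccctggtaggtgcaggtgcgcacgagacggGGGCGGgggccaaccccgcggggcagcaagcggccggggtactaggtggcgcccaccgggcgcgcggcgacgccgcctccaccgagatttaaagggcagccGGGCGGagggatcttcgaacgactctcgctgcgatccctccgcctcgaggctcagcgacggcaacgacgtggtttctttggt
Ccdc124: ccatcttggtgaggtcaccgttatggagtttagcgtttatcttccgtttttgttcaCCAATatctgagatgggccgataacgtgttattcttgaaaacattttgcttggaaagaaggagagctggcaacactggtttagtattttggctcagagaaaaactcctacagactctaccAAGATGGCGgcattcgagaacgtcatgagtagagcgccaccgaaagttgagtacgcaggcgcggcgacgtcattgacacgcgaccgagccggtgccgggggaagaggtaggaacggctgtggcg
Sfswap: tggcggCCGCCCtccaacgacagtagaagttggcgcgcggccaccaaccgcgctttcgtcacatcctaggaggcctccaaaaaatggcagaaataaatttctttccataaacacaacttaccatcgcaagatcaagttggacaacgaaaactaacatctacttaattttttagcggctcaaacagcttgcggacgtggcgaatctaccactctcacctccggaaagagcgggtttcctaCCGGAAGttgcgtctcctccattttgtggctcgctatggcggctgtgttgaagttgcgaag
Ndufs7: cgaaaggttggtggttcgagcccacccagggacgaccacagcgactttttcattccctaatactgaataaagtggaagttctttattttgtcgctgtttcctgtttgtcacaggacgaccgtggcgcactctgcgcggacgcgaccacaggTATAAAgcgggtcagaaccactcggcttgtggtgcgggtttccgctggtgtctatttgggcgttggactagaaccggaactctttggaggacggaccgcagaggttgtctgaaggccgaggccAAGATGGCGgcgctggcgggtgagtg
Ptbp1: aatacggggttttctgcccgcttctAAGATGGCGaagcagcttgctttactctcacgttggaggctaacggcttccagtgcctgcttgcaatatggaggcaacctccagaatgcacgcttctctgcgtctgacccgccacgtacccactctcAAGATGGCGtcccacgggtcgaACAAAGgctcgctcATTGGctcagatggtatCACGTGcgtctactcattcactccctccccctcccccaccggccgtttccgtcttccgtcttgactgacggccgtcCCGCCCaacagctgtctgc
Fam98b: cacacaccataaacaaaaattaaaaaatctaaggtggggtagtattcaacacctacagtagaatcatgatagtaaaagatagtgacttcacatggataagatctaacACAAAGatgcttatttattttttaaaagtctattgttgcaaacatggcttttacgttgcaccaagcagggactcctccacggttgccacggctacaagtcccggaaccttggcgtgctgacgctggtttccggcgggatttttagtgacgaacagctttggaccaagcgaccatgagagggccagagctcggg
Tbc1d7: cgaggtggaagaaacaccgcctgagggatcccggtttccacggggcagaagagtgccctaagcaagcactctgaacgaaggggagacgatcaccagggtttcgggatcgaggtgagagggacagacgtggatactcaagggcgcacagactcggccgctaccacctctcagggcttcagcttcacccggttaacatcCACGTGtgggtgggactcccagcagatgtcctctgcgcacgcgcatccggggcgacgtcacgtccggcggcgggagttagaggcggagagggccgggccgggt
Chtop: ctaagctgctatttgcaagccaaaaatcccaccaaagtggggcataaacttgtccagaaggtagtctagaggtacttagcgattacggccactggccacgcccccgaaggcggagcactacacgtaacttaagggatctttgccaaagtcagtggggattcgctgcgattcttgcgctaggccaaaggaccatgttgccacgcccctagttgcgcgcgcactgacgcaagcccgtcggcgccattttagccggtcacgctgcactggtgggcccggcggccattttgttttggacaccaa

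Most Chd8-only single-end peaks were weakly enriched, and a short tail was strong. Fold ran between 3.81 and 23.6 with a median of 4.41 and quartiles of 4.06 and 4.95, and 400 peaks stood within 0.0001 of the lowest value in the list. A fold of at least 5 was reached by 1015 peaks (23.5%) and a fold of at least 10 by 12. Width ran between 99 and 2284 bp, with a median of 363 bp. Removing every peak that touched an input list left 1828 peaks at 1716 genes, and a −log10 q of at least 5 left 385 peaks at 383 genes.

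At the strong end, Kmt5b had a peak of 1885 bp at chr19:3767269-3769153, its midpoint 322 bp downstream of the start, and all 3 inputs also had a peak there, with folds of 3.52, 3.23 and 3.48. Ccdc124 had a peak of 717 bp that touched inputs 1 and 3 (folds 3.72 and 4.46) and not input 2. Sfswap had a peak of 704 bp that touched inputs 1 and 2 (3.64 and 3.38) and not input 3. At these 3 genes the nearest Chd7 peak of either library was at least 7551 bp away.

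Ufc1, which conjugates the ubiquitin-like modifier UFM1, had a fold of 12.7 over 1000 bp. Gtf3c5, a subunit of the RNA polymerase III factor TFIIIC, had 11.5. Fam98b had 10.4. Each of these 3 peaks, like that of Ndufs7, touched input 3 and neither other input. Mrpl1, a protein of the mitochondrial ribosome, stood apart with a fold of 10.8 in a peak of only 288 bp that touched no input. Pnisr, a splicing-related protein, had 10.5 over 1250 bp, again in no input.

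Both Tsc1 and Tbc1d7, whose proteins sit in the TSC complex that restrains mTOR signalling, were among the 15 strongest. Tbc1d7 had a fold of 10.3 and touched all 3 inputs (folds 3.85, 3.57 and 3.58). Tsc1 had 9.55 and touched input 2 alone, with 3.91. Their partner Tsc2 had a Chd8 peak at an end but no Chd8-only single-end one, and a peak of Chd7 replicate 1 lay at one of its ends. Serbp1, an mRNA-binding protein of the ribosome, had 9.74, and Eif3f, a subunit of initiation factor eIF3, had 9.60 with no input peak. Beside Mrpl1, Pnisr and Eif3f, the strongest peaks in no input were at 1110051M20Rik with 9.13 and at Dmap1, a subunit of acetyltransferase and remodeling complexes, with 9.11.

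At the weak end, Zfp358, Efr3b, Akap12, Ncoa1 and Sephs1, which are 5 of the 400 tied at the lowest value and were taken by their start coordinate, all had a fold of 3.81 and widths between 116 and 698 bp. The widest peaks were not the strongest: Tmem178b had 4.23 over 2284 bp, the adhesion molecule Negr1 had 4.44 over 2259 bp, and Prrt1 had 4.22 over 2059 bp. Hsp90ab1, a chaperone, had 6.37 over 2243 bp, and Tob2, an antiproliferative protein, had 7.36 over 2121 bp.

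A single peak per gene was the rule. It held for 3649 of the 3976 genes, while 316 had 2 peaks, 10 had 3 and 1 had 4. Pcbp1, an RNA-binding protein, had 3 peaks with folds of 7.90, 4.57 and 4.49, and the mitochondrial translation factor Mrpl58 had 7.42, 4.21 and 3.81. Irf2bp1, a transcriptional corepressor, was the gene with 4, at 4.98, 4.46, 4.15 and 3.99, all of them 110 to 218 bp wide. Others with 3 included Actn1, Atp1b2, Ctbp1, Fam136a, Gpr17, Klf16 and Top2b, which are named because the count was seen to be small.

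Position was read in the direction of the gene for the 3392 peaks whose gene is in the RefSeq promoter table, and the other 923 have no known strand here. Nearly all of these peaks lay at the start. A total of 3219 of 3392 (94.9%, 94.1 to 95.6) touched the window of 1 kb around the starting boundary alone, 127 (3.74%, 3.13 to 4.44) that around the far boundary alone, and 46 both. The promoter window itself was touched by 2181 of 3392 (64.3%, 62.7 to 65.9), and 632 covered it whole. Counted by windows and not by peaks, 11.1% of all coding promoter windows were touched, which is another denominator and no background for the 64.3%. Of the peaks in the start window alone, 57.9% had their midpoint within 250 bp of the nearest listed start. Their median midpoint lay 23.5 bp (12 to 34.5) downstream, with 53.9% downstream and quartiles at −147.75 and 238.25 bp.

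**Figure D1:**
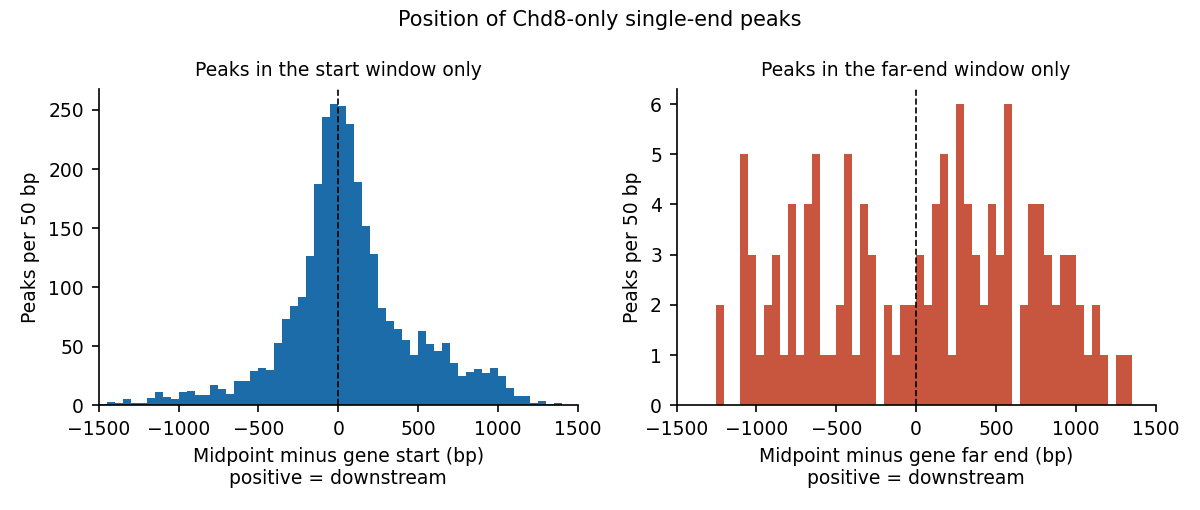
Number of Chd8-only single-end peaks per 50 bp (y axis) against the distance of their midpoint from the gene start (left, peaks in the start window alone, n = 3219) and from the far end (right, peaks in the far-end window alone, n = 127), in bp with positive values downstream. The start peaks pile up at the start with a median at 23.5 bp, and the far-end peaks have no such pile (median 142.5 bp, quartiles −540.75 and 574.5 bp).

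Strong peaks were promoter peaks more often than weak ones. With the 3392 peaks split by fold into 4 equal groups of 848, the promoter window was touched by 43.9% (40.5 to 47.3), 57.1%, 71.2% and 85.0% (82.4 to 87.4), lowest group first. Median width was 265, 342, 420 and 501 bp in the same groups, and the share that touched input 3 was 39.3%, 50.9%, 50.4% and 56.6%. Width and input overlap thus moved with the pattern, and their part in it was not tested.

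The 127 peaks at far ends alone were weaker and narrower. Their median fold was 4.20 (4.12 to 4.32), against 4.45 (4.42 to 4.47) for peaks at starts alone, and the median width of the far-end peaks was 275 bp, that of the start peaks 371 bp. They also touched input 3 less often, 26.8% (19.3 to 35.4) against 50.3% (48.6 to 52.1). The strongest, picked after their values were seen, were at Pomc, the precursor of the melanocortins, with a fold of 6.34, the ephrin ligand gene Efna2 with 5.89, A130010J15Rik with 5.81, Tac1, the precursor of substance P, with 5.77, and Ncstn, a subunit of γ-secretase, with 5.66. The peaks at Pomc, A130010J15Rik and Tac1 touched no input. The start of a long noncoding RNA lay within 1 kb of 2 of 106 far-end peaks of genes over 4 kb long (1.89%, 0.229 to 6.65). For start peaks, of genes of any length, it was 378 of 3219 (11.7%, 10.7 to 12.9). Far ends of coding genes at large were not counted, so the 1.89% has no background and is not shown to be particular to these peaks.

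At the start, a divergent noncoding partner was more frequent than among genes at large. Of the 3000 genes with such a peak at the start, 346 (11.5%, 10.4 to 12.7) had the start of a long noncoding RNA on the opposite strand within 1 kb, against 1167 of 17492 genes (6.67%, 6.31 to 7.05) of the whole table. The pairs of highest fold were Sfswap with Gm40332 (13.1), Tbc1d7 with Gm40929 (10.3), Rrp15 with A430105J06Rik (9.52), Ipo8 with 2610017A05Rik (9.16) and Sec23b with Gm34292 (8.93). Rrp15 acts in ribosome assembly, Ipo8 in nuclear import and Sec23b in the coat of COPII vesicles. CpG-rich promoters as a class were not taken out of this comparison. The rule also kept only peaks at the end of exactly 1 protein-coding gene. The whole table was not restricted in this way and still holds genes whose ends lie close to those of other coding genes. The part of the rule in the difference was not tested.

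Which gene groups carried these peaks was read from 24 gene lists, as a description beside the background. A Chd8-only single-end peak was present at 18.2% of all coding genes and at 44.3% of the genes with any Chd8 peak at an end, which were 41% of coding genes. Highest in order were genes of OPC identity, at 17 of 28 (60.7%, 40.6 to 78.5), and cytosolic ribosomal proteins, at 36 of 76 (47.4%, 35.8 to 59.2). The lowest were markers of endothelial and mural cells, at 0 of 30 (up to 11.6%), hepatocyte genes, at 2 of 25 (8.00%), and microglial markers, at 4 of 25 (16.0%). These lists had few Chd8 peaks of any kind at their ends, at 0, 3 and 4 genes. Among the genes with Chd8 at an end, the order was another: the share with a Chd8-only single-end peak was 100% of 4 microglial, 77.8% of 9 neuronal, 73.9% of 23 OPC identity, 66.7% of 3 hepatocyte, 50% of 72 ribosomal and 31.7% of 60 splicing genes, against the 44.3% of all. Genes with such a peak had a median length of 25.8 kb (24.7 to 27.2). The median was 19.6 kb for other genes with Chd8 at an end and 17.2 kb for all coding genes. The rule took out peaks shared between the ends of several coding genes and peaks that touched Chd7. The comparison groups were not restricted in this way and still hold genes with peaks of those kinds. The part of the rule in the difference in length was not tested.

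**Figure D2:**
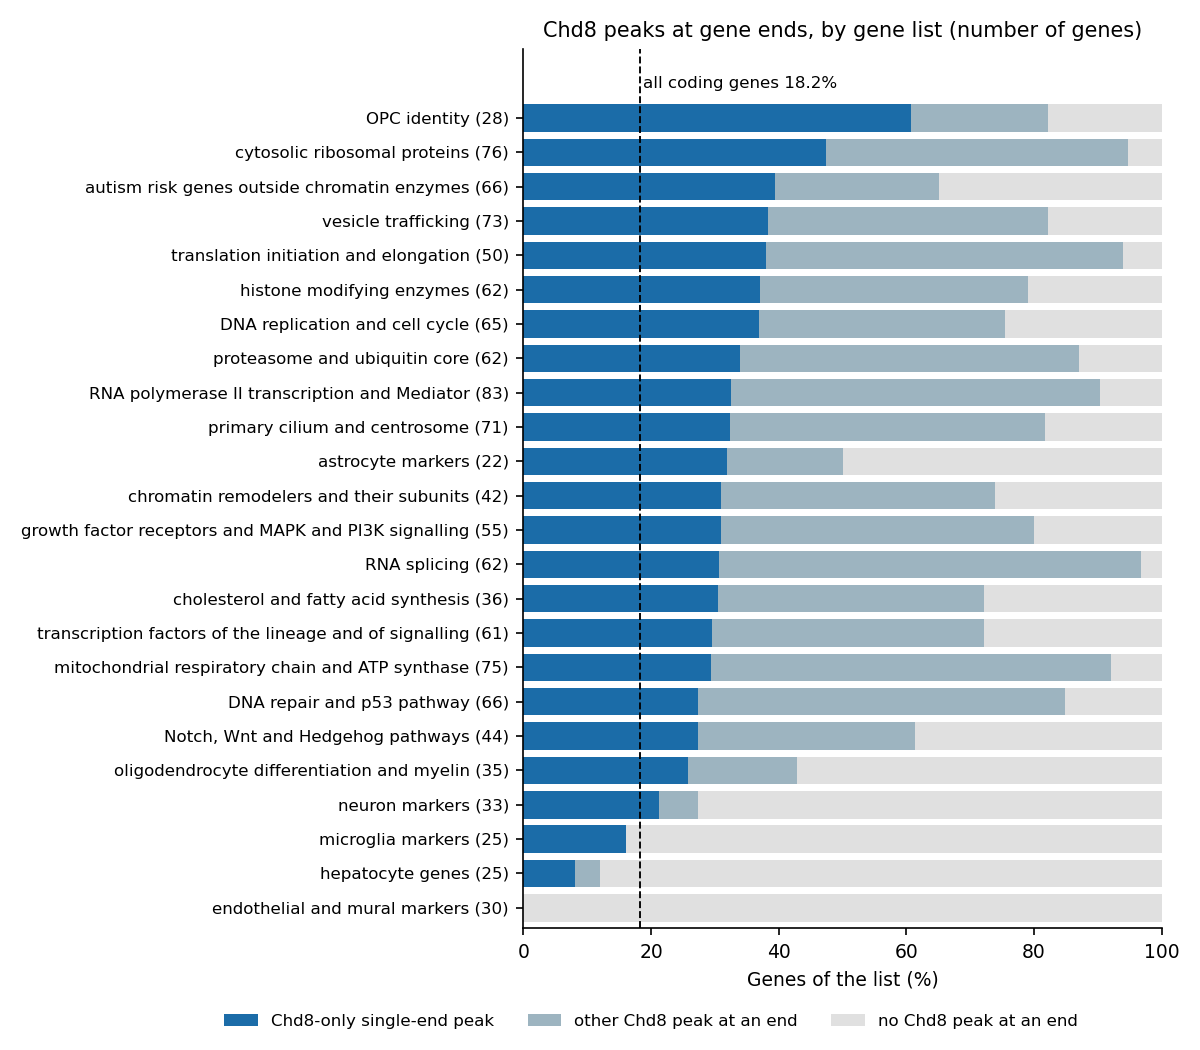
Percent of the genes of each list (x axis; rows are lists, with the number of genes) that had a Chd8-only single-end peak (blue), another Chd8 peak at an end and no such peak (grey blue), or no Chd8 peak at an end (light grey); the dashed line is the 18.2% of all coding genes. OPC identity genes stand at 60.7% and ribosomal proteins at 47.4%, and 0 of the 30 endothelial and mural markers has any Chd8 peak at an end.

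The OPC identity genes carried many peaks of low fold. The 17 genes held 23 such peaks with a median fold of 4.16 and a median width of 319 bp, against 4.41 and 363 bp over all 4315. Input 3 touched 7 of them (30.4%), against 48.9% of all. Neu4, a sialidase, had the highest fold, 6.10, in a peak of 719 bp that touched no input and lay 251 bp upstream of the start, and a second peak at 3.81. Dll3, a Notch ligand, had 5.28 at 183 bp upstream, in a peak that also touched input 3. Sox6, a transcription factor known to hold precursors immature, had 4.74, in no input.

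The receptor and the defining transcription factors of the lineage were among them. Pdgfra, the receptor for the growth factor that drives precursor division, had 2 peaks in no input, with folds of 4.25 near the start (chr5:75151307-75151546) and 4.16 near the far end (chr5:75198706-75199024). Sox10, a master regulator of the lineage, had 4.35 and 4.53 at its 2 boundaries, the second also in input 3. Olig1 had Chd8-only peaks of 4.05 and 3.95 beside a stronger Chd8 peak of 4.57 that also lay in 1 Chd7 library. The Olig1 peak of 4.05 also lay in input 3, with a fold of 3.54 there, and the other Chd8-only one in no input. Olig2, which specifies the lineage, had 4.06 beside a Chd8 peak of 5.34 that also lay in 1 Chd7 library, and its Chd8-only peak touched inputs 1 and 3 (folds 3.52 and 3.73). Nkx2-2, a regulator of differentiation, had 4.07 in a peak that touched input 3 (3.37). Myrf, the regulator of myelin genes, had no Chd8 peak at an end.

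The surface and matrix genes Vcan (4.33), Gpr17 (4.21), Matn4 (4.12), Bcan (4.05) and Tnr (3.91) also had them, as did the transcription factors Sox11 (4.25) and Sox8 (4.25). Cspg4, whose product NG2 marks precursors, had no Chd8 peak at an end, and neither had Ptprz1 or Ncan.

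Chd7 was near these OPC peaks although it did not touch them. Of the 23 peaks, 7 (30.4%) lay within 1 kb of a Chd7 peak and 16 (69.6%) within 10 kb, against 10.7% and 21.8% of all 4315. The median gap was 4208 bp, against 43998 bp. At Olig1 the gap to Chd7 replicate 2 was 14 bp, at Sox11 457 bp to replicate 1, and at Gpr17 664 bp to replicate 1. A Chd7 peak lay at an end of 9 of the 17 genes, against 531 of all 3976 genes with a Chd8-only single-end peak (13.4%) and 22.0% of coding genes. Requiring no Chd7 peak within 1 kb left 46.4% of the OPC identity genes with a peak, and 16.2% of coding genes. With a fold of at least 5 the shares were 7.14% and 4.59%, with a −log10 q of at least 5 they were 3.57% and 1.75%, and without peaks that touched any input they were 39.3% and 7.84%.

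Genes of the later oligodendrocyte gave a lower share than the 60.7% of OPC identity genes. Of 35 genes of differentiation and myelin, 9 (25.7%, 12.5 to 43.3) had a Chd8-only single-end peak, against 18.2% of all coding genes. Another 20 had no Chd8 peak at an end. Of the 15 with Chd8 at an end the share was 60%, against 44.3% of all such genes. Zfp536 had 4.71, Gal3st1, which makes the lipid sulfatide, had 4.53, Zfp488 had 4.39 and the myelin enzyme Cnp had 4.34. Mbp had a Chd8 peak at an end but no Chd8-only single-end one, and Mog and Mag had none.

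Among genes of signalling in the lineage, 18 of 61 (29.5%) transcription factors had such a peak, with Srebf2, the regulator of cholesterol synthesis, at 5.96, Creb1 at 5.57 and Smad3 at 5.56. In the Notch, Wnt and Hedgehog list it was 12 of 44 (27.3%), led by Ctnnb1, which encodes β-catenin, at 8.08, the receptor Notch2 at 6.60 and Numbl at 4.79. In the growth factor and kinase list it was 17 of 55 (30.9%), led by Mtor at 6.29, the phosphatase Dusp1 at 4.75 and the kinase Braf at 4.61. Tsc1, Tbc1d7 and Mtor of the mTOR route had such peaks and Tsc2 did not, but no list of that route was counted. No share for it can be set beside the 18.2% of all coding genes. Among 36 genes of cholesterol and fatty acid synthesis, which myelin needs, 11 (30.6%) had a peak, led by Acat2 at 5.97, the elongase Elovl6 at 4.90 and Acly, which makes cytosolic acetyl-CoA, at 4.84. Of genes with Chd8 at an end, the lists of this paragraph stood at 38.6% (growth factor and kinase) to 44.4% (Notch, Wnt and Hedgehog), against 44.3% of all.

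Ribosomal protein genes differed from the OPC genes in the shape of their peaks. Their 37 peaks at 36 genes had a median fold of 5.11 and a median width of 711 bp. The highest were at Rpl29 (7.48) and Rpl32 (7.33). Another 36 ribosomal protein genes had a Chd8 peak at an end but no Chd8-only single-end one, so that Rpl22, Rpl19, Rps2 and Rpl17 were the 4 of 76 without Chd8. Of the 37 peaks, 20 (54.1%) touched input 3. Without peaks of any input, 18.4% of the 76 genes had one, and with a fold of at least 5 it was 25%.

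Other housekeeping lists lay between 27.3% and 38.4%, against 18.2% of all coding genes. Of their genes with Chd8 at an end, 31.7% (splicing) to 49.0% (DNA replication and cell cycle) had such a peak, against 44.3% of all. Translation factors were at 19 of 50 (38.0%), with Eif3f at 9.60, Eif3e, another eIF3 subunit, at 9.39 and Eif2s3x, a subunit of eIF2, at 8.72. Splicing factors were at 19 of 62 (30.6%), with Ptbp1 at 10.6, the Sm protein Snrpd1 at 7.05 and Srsf5 at 6.02. Splicing was also the list with the most Chd8 at ends, 60 of 62 genes, so that 41 genes had Chd8 peaks of other kinds. The respiratory chain was at 22 of 75 (29.3%), led by Ndufs7, Cox7b (6.53) and Uqcrfs1 (6.42). The proteasome and ubiquitin list was at 21 of 62 (33.9%), with the proteasome ATPase genes Psmc1 at 5.89 and Psmc3 at 5.79. Vesicle trafficking was at 28 of 73 (38.4%), led by Sec23b at 8.93 and Sec13, also of the COPII coat, at 6.43 and the adaptor subunit Ap1m1 at 6.16. DNA replication and cell cycle was at 24 of 65 (36.9%), led by Rpa2 at 7.03, the phosphatase Cdc25a at 6.33 and the kinetochore protein Spc24 at 5.28. DNA repair and the p53 pathway was at 18 of 66 (27.3%), led by Ercc1 at 5.73, the checkpoint kinase Chek1 at 5.41 and the ligase Lig3 at 5.19, and cilium and centrosome genes were at 23 of 71 (32.4%), led by Ttc8, a subunit of the BBSome, at 7.11, Rpgr at 6.41 and Ift88 at 5.92.

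Genes that act on chromatin and transcription, the field of Chd8 itself, gave similar shares. Of those with Chd8 at an end, 36% (RNA polymerase II and Mediator) to 46.9% (histone enzymes) had such a peak, against 44.3% of all. Histone enzymes were at 23 of 62 (37.1%), with Kmt5b, the demethylase Kdm5c (7.00) and the acetyltransferase Ep300 (5.87) on top. Remodelers and their subunits were at 13 of 42 (31.0%), with Gatad2b, a subunit of NuRD, at 5.89, Chd6 at 5.74 and Dpf2, a subunit of BAF, at 5.65. Of the CHD family, Chd2, Chd4 and Chd9 also had such peaks, at 4.88, 5.06 and 4.61. Chd8 itself had peaks of 5.49, shared with the end of Supt16, and 6.92, which lay in 1 Chd7 library, and neither belongs here. Chd7 had no Chd8 peak at an end. RNA polymerase II and Mediator genes were at 27 of 83 (32.5%), led by Med4 at 6.91, Taf5 at 6.66 and Med6 at 6.27.

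Autism risk genes outside the chromatin enzymes were at 26 of 66 (39.4%), against 18.2% of all coding genes. Among them were Tsc1 at 9.55 and Ctnnb1 at 8.08. Further examples were Foxp1 at 5.08 and Scn2a at 3.81. Chd8 lay at an end of 43 of the 66 genes, and 23 had none, Shank3, Grin2b and Auts2 among them. Of the 43, 60.5% had a Chd8-only single-end peak, against 44.3% of all genes with Chd8 at an end.

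Markers of other cell types in the tissue also carried such peaks. For neurons and astrocytes the 18.2% of all coding genes lay within the counting limits. Neuronal markers were at 7 of 33 (21.2%, 8.98 to 38.9). They were led by Gad1, the enzyme of GABA synthesis, at 4.54, with Syn1 at 4.35 and the neurofilament gene Nefl at 4.10. Astrocyte markers were at 7 of 22 (31.8%, 13.9 to 54.9). Their highest were S100b at 4.94, the glutamate transporter Slc1a3 at 4.29 and Slc1a2 at 4.16, while Gfap, Aqp4 and Gja1 had no Chd8 peak at an end. Microglial genes with a peak included Sall1 (4.27), P2ry12 (3.95) and Spi1 (3.88). Hepatocyte genes with one were Apoa1 (4.66) and Trf (3.87), of which Trf is also made by oligodendrocytes and stands in the myelin list.

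Chd7 peaks lay elsewhere at some of these genes. Of the 3976 genes, 531 (13.4%) had a Chd7 peak elsewhere at an end, against 22.0% of all coding genes, and the rule itself asked for peaks clear of Chd7. Of the 531, 257 had one from replicate 1, 370 from replicate 2 and 96 from both. Within the gene and 10 kb on either side, 1497 genes (37.7%) had a Chd7 peak, near the 37.8% of all coding genes. At 3520 genes (88.5%) every Chd8 peak at an end was of the kind described here, and 456 had another Chd8 peak as well. By peaks, 60 (1.39%) lay within 100 bp of a Chd7 peak. The closest were at Hgh1, where the Chd8 peak abutted one of Chd7 replicate 2, and Atcay, 1 bp from replicate 2. On the gene window, the peaks just inside were those of Ptprk, Ipo8 and Faah, 998, 997 and 996 bp from a boundary, and the nearest outside were at Gpm6a, Sptb and Pcdh18, 1002, 1003 and 1005 bp away. A boundary was covered by 2015 (46.7%) of the peaks.

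Compared with Chd8 peaks that Chd7 also touched, these were weaker, narrower and less often at the promoter window. Median fold was 4.41 (4.39 to 4.43) here, 4.98 for gene-end peaks in 1 Chd7 library and 5.47 (5.39 to 5.56) for those in both. Median width was 363, 600 and 782 bp. The gene-end classes with Chd7 also hold peaks at the ends of 2 or more genes. For single-end peaks with a known strand alone, the medians were 4.44, 4.94 and 5.40, and 368, 582 and 752 bp. Of single-end peaks with a known strand, the promoter window was touched by 64.3% here, 83.7% (81.9 to 85.5) with 1 Chd7 library and 91.9% (89.4 to 93.9) with both. The part of peak width in this order was not tested. The classes were set by a touch of at least 1 bp. A wide Chd8 peak meets a Chd7 peak or a further gene window more readily, so the rule itself bears on the order of widths. The order of widths is therefore a description, and the part of the rule in the orders of fold and width was not tested. Among peaks clear of Chd7, those at single gene ends lay between those at paired gene ends, with medians of 4.67 and 468.5 bp and 54.7% in input 3, and those at no gene end, with 4.16, 272 bp and 19.9%.

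Overlap with the input lists differed along the same order. Input 3, which the labels assign to the Chd8 library, touched 48.9% (47.4 to 50.4) of the Chd8-only single-end peaks, against 70.2% of gene-end peaks in 1 Chd7 library, 81.7% (79.0 to 84.1) of those in both and 40.3% of all Chd8 peaks clear of the mocks. Among single-end peaks with a known strand, input 3 touched 49.3% of the Chd8-only ones, 69.1% with 1 Chd7 library and 81.1% with both. The lists of inputs 1, 2 and 3 held 109486, 178478 and 91628 peaks, covering 40.7, 81.5 and 34.2 Mb. For inputs 1 and 2, both larger than input 3, the shares of the Chd8-only single-end peaks were 18.7% and 20.95%. Peaks in no input numbered 1828 (42.4%), and 289 (6.70%) were in all 3. Gene ends at large were in the input 3 list: it had a peak at an end of 65.9% of the genes described here and of 45.2% of all coding genes. The part of the input signal in the Chd8 peaks was not tested.

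**Figure D3:**
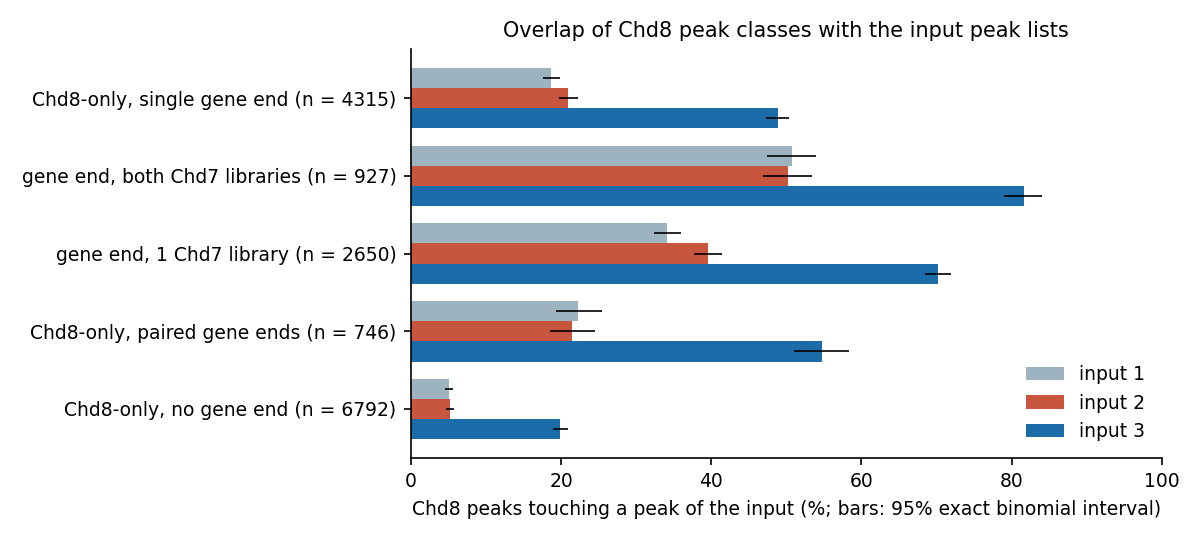
Percent of the Chd8 peaks of each class (rows, with n) that touched a peak of input 1, 2 or 3 (x axis; bars with 95% exact binomial intervals). The Chd8-only single-end peaks reach 48.9% for input 3, below gene-end peaks in both Chd7 libraries at 81.7% and above Chd8-only peaks at no gene end at 19.9%.

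The letters of the promoters were compared next. The windows touched by these peaks numbered 2365, of 2173 genes, and those touched by Chd8 peaks shared with both Chd7 libraries 973. Another 13802 windows were touched by no Chd8 peak, and the table held 21263 in all. Median CpG count per window was 20 for the Chd8-only peaks, 25 for the shared ones, 6 without Chd8 and 13 in all, and median G+C content was 59.7%, 63.7%, 52.7% and 56.3%. Chd8-only peaks touched 20.4% (19.2 to 21.6) of windows with 10 to 19 CpGs and 18.5% (17.4 to 19.7) of those with 20 to 29, with overlapping limits. They touched 13.2% of windows with 30 or more, 5.69% of those with 5 to 9 and 0.729% of those with fewer. The rule took out Chd8 peaks that touched Chd7, and its part in these shares was not tested.

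**Figure D4:**
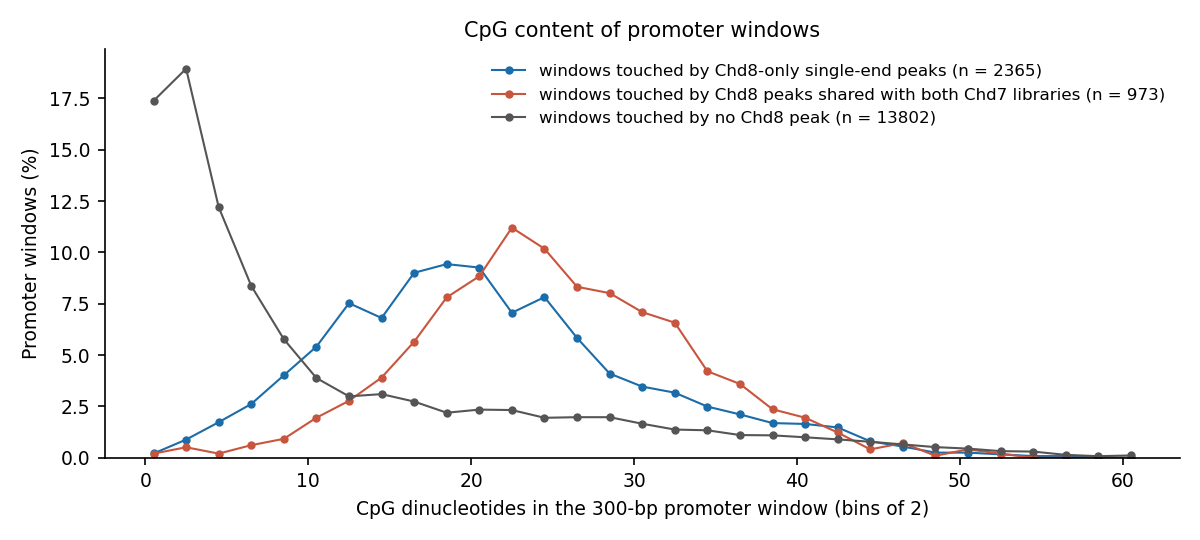
Percent of promoter windows (y axis) by their number of CpG dinucleotides, in bins of 2 (x axis), for windows touched by the Chd8-only single-end peaks (blue), windows touched by Chd8 peaks shared with both Chd7 libraries (red) and windows touched by no Chd8 peak (grey). The blue curve, with a median of 20, lies left of the red, with a median of 25, and right of the grey, with a median of 6.

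Motifs were searched as exact letters on both strands. GGGCGG, the GC box of Sp and Klf factors, was in 64.1% of the windows of Chd8-only peaks, 74.1% of the shared, 35.3% of those without Chd8 and 46.2% of all. CCAAT, known from NF-Y, was in 42.0%, 50.7%, 35.5% and 38.2% in the same order. CCGGAAG, the core of ETS factors, was in 22.5% (20.8 to 24.2), 20.8%, 5.12% and 11.6%. AAGATGGCG, known from YY1, was in 4.36% (3.57 to 5.26), 3.70%, 0.427% and 1.83%. TGACGTCA of the CREB and ATF factors was in 4.61%, 3.80%, 1.20% and 2.23%, and CGCATGCG, part of the NRF1 motif, in 5.03%, 5.76%, 1.02% and 2.52%. CTCGCGAG, known from Zbtb33, was in 1.69%, 3.08%, 0.645% and 1.24%, and the E-box CACGTG in 10.4%, 10.5%, 6.33% and 7.84%. Lower in the windows of Chd8-only peaks than in all were TATAAA, the TATA box, with 7.44%, 4.93%, 16.3% and 12.6%, and ACAAAG, known from Sox factors, with 13.8%, 10.7%, 19.1% and 16.8%.

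Windows of like CpG content were then set side by side. Among windows with 10 to 19 CpGs, GGGCGG was in 54.6% of those of Chd8-only peaks and 58.3% of those without Chd8, and with 20 to 29 CpGs in 73.7% and 82.8%, so it was less frequent at the Chd8-only peaks there. The order also turned for TATAAA, with 9.86% against 8.84% and 5.46% against 4.93%, and for ACAAAG, with 17.3% against 14.6% and 11.3% against 10.5%. For CACGTG it turned as well, with 8.53% against 10.4% and 12.3% against 12.5%. For TATAAA and CACGTG the values without Chd8 lay within the counting limits of those with Chd8-only peaks. For ACAAAG this held at 20 to 29 CpGs (9.19 to 13.7) and not at 10 to 19 (14.9 to 19.9). CCGGAAG kept a difference, with 22.8% against 8.94% at 10 to 19 CpGs and 27.7% against 10.1% at 20 to 29. The windows shared with both Chd7 libraries had CCGGAAG in 16.3% and 25.8%. AAGATGGCG differed too, with 4.76% against 0.875% and 5.46% against 0.822%, and 3.26% and 3.97% in the shared windows. Differences in the same direction were seen for CCAAT (46.3% against 34.8% and 40.2% against 30.1%), CGCATGCG (4.43% against 2.33% and 6.20% against 2.47%) and TGACGTCA (3.88% against 1.99% and 6.20% against 2.60%). CCAAT was more frequent still in the shared windows, in 56.7% and 54.3%. CGCATGCG was in 4.65% and 4.42% of the shared windows, and TGACGTCA in 1.86% and 4.86%. Of all coding windows with these CpG counts, CCAAT was in 41.9% and 39.2%, CCGGAAG in 15.2% and 22.5%. AAGATGGCG was in 2.82% and 3.74% of them, CGCATGCG in 3.59% and 4.73%, TGACGTCA in 2.69% and 4.22%. CTCGCGAG was in 0.664% against 0.680% and in 2.61% against 2.19%. Ccdc124, Ndufs7 and Ptbp1, printed above, hold AAGATGGCG, and Sfswap holds CCGGAAG. A match is a description of the letters and not a bound site.

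The X chromosome held a large share of Chd8-only peaks among its Chd8 peaks. Of 158 single-end Chd8 peaks on X, 139 (88.0%, 81.9 to 92.6) were clear of Chd7, against 4174 of 6975 (59.8%) on the autosomes, where chromosomes ran between 55.3% on chromosome 15 and 65.2% on chromosome 2. Since clearance of Chd7 is part of the rule, this is a description. The strongest on X in the lists were at Eif2s3x (8.72), Kdm5c (7.00), Cox7b (6.53) and Rpgr (6.41). Median fold was 4.47 on X and 4.41 on the autosomes. Input 3 touched 16 of the 139 peaks on X (11.5%, against 50.1% on the autosomes). Few peaks of the Chd7 lists lay on X: 0.625% (0.430 to 0.876) for replicate 1 and 1.57% (1.28 to 1.91) for replicate 2. The share of the Chd8 list was 1.73% (1.54 to 1.93), near that of Chd7 replicate 2. Of the lists of inputs 1, 2 and 3, 4.22%, 6.53% and 2.60% lay on X. By genes, X carried less Chd8: 132 of 966 coding genes on X (13.7%) had a Chd8-only single-end peak, and 182 (18.8%) had any Chd8 peak at an end, against 18.2% and 41% of all coding genes. The part of the input signal on X in these shares was not tested.

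**Figure D5:**
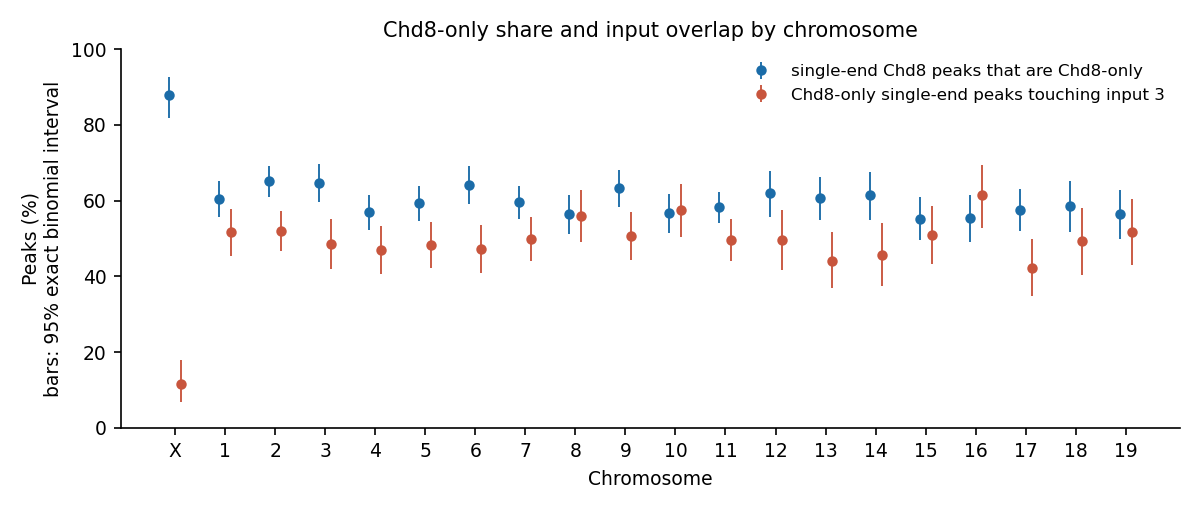
Percent of single-end Chd8 peaks that were clear of Chd7 (blue) and percent of the Chd8-only single-end peaks that touched input 3 (red), by chromosome (x axis), with 95% exact binomial intervals. X stands at 88.0% and 11.5%, while the autosomes run between 55.3% and 65.2% and between 42.1% and 61.4%.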

How the data were processed

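The deposited files are broad peak lists on mm10, 1 per library, and libraries were grouped by their titles. Bowtie2, SAMtools, Picard and MACS made them, per the submitters' processing notes. Their versions, their settings and the control used in calling count as not given in the sources used here. Each peak has a score and a fold (a ratio over the caller's background), both computed by the authors, and a −log10 p and −log10 q computed by the authors. Track names inside the files give Chd8 and Chd7 replicate 2 other replicate numbers than the titles, by which inputs 2 and 3 would change places; titles were used. The extraction notes name the O4 antibody for isolating the complexes, the sample labels anti-Chd8 and anti-Chd7; the labels were used.

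Overlap meant at least 1 bp. Gene boundaries, promoter windows of 300 bases and sequences came from RefSeq (GRCm38.p6); 17492 of 21887 coding genes (79.9%) have a window, none of them on chromosome 18, so 923 peaks, 130 of them on that chromosome, were not oriented. A start missing from the table makes a distance too long. No genome was used here, so peaks were not read as sequence. Peaks, genes and gene lists were counted with Python 3.11.15, pandas 2.3.3 and SciPy 1.17.1, with 95% Clopper-Pearson intervals for shares and order-statistic intervals for medians. Overlap and counting functions were tested on simulated intervals. The peaks described and the gene lists were chosen with earlier results of these data known. Of the lists, 1236 distinct genes matched, 16 by an older symbol. Named are the 15 peaks of highest fold, 5 of the lowest (ties by start coordinate), the 5 widest, up to 5 genes with several peaks, the top 3 of each list, the top 5 in no input, the 3 nearest to Chd7, and Olig1, Olig2, Sox10, Pdgfra, Myrf, Nkx2-2, Chd7 and Chd8. Other genes named were chosen after their values were seen. A few genes under these criteria are not reported here.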

Additional observations from a re-analysis of the deposited data

How the results depend on the processing

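The thresholds decided how many peaks there were. Against 4315 peaks at 3976 genes, a −log10 q of at least 5 gave 385 at 383, and a fold of at least 5 gave 1015 at 1004. Removing input 3 peaks gave 2207 at 2056, and removing peaks of any input gave 1828 at 1716. Counts stayed within 1.5 times with windows of 500 bp or 2 kb, peaks of mocks kept, or sex chromosomes left out. So they did with a Chd7 overlap of at least 50% of either peak and with no Chd7 peak within 1 kb. Leaving out a Chd7 library also stayed within 1.5 times (4990 to 5756 peaks at 4552 to 5252 genes). The share in the promoter window (64.3%) was 92.4% with the q threshold, 84.8% with the fold threshold, 75.4% and 56.2% with windows of 500 bp and 2 kb, 68.3% with no Chd7 peak within 1 kb, 59.2% and 56.7% without peaks of input 3 or of any input, and 66.9% to 69.3% without a Chd7 library. The share in input 3 (48.9%) was 57.1%, 56.7%, 50.6% and 46.4% under the first 4 of these, 49.9% to 55.3% without a Chd7 library, and 20.95% with input 2 in place of input 3, an alternative chosen after seeing the data. Median width (363 bp) was 588, 503, 388, 346.5, 374, 324 and 309.5 bp under the same 7 alternatives in that order, and 385 to 408 bp without a Chd7 library. Fewer peaks follow from a stricter threshold by construction; the cause of the other shifts was not tested. No paired analysis was possible because the results come from no test and Chd8 has 1 library. Depth is unknown, so a missing Chd7 peak is a peak under that list's threshold.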
